A study of Macaca mulatta with 49 samples.

Results

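The genes described are 10 members of the BCL2 family, taken by symbol from the annotation of the array: the survival genes BCL2, BCL2L1 (BCL-XL), MCL1 and BCL2A1 (BFL-1/A1), the pore-forming death genes BAX and BAK1, and the BH3-only death genes BID, BCL2L11 (BIM), BBC3 (PUMA) and PMAIP1 (NOXA). They are 10 of the 20046 genes with a probe of a single symbol, and each was represented by its probe with the highest mean signal. The array held 22 probes for them, and 12 probes of 8 genes passed the detection filter, which asked for a detection p-value under 0.05 on 6 or more of the 24 samples in CD8 or in CD4. BCL2L11 and PMAIP1 did not pass it and were not tested.

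RNA came from blood of 12 rhesus macaques (Macaca mulatta), from which central memory T cells (TCM) had been sorted. The CD8 and CD4 TCM of each animal were taken once before and once after an antibody, which was anti-IL-15 in 6 animals and an IgG1 control antibody in the other 6. This gave 8 groups of 6 samples, with every animal in 4 of them, so the later samples of the control animals are also from treated animals. The labels used here give neither the age of the animals nor the dose or the time after treatment, and the arrays carry human probes, so a macaque transcript that differs from the probe can give a weak or absent signal.

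Interleukin 15 (IL-15) is a cytokine that signals through IL2RB and the common gamma chain to JAK kinases and STAT5, and it is known for keeping memory CD8 T cells and NK cells alive. Proteins of the BCL2 family decide whether the outer membrane of the mitochondrion stays intact: the survival members hold BAX and BAK1 in check, and the BH3-only members bind the survival members or activate BAX and BAK1. In T cells BCL2 is known as a target of common gamma chain cytokines and BIM as a main killer after cytokine withdrawal.

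Levels are log2 intensities after background correction and quantile normalization, and a difference of 1 on this scale is a 2-fold difference. Each level is compared only with levels of the same probe. On the arrays 24.2% to 31.5% of the 47230 probes were detected, and the median raw intensity was 88 to 103 for CD8 and 96 to 108 for CD4. The CD8 sorts held 23000 to 116000 cells and the CD4 sorts 197000 to 958000, so the number of sorted cells and the cell type cannot be told apart. CD8A, a subunit of the CD8 co-receptor, was 7.16 ± 0.16 (log2 difference ± SE) higher in CD8 than in CD4 TCM before treatment. The probe for CD4 itself was detected in 1 of 24 CD4 samples and 0 of 24 CD8 samples, and the CD3E probe in 4 and 3, so the CD4 label could not be checked with its own gene. In CCR7 and IL7R, both marks of central memory cells, signal was detected in 24 of 24 samples of each cell type.

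Among the 8 tested members, each read by its brightest probe, BCL2 had the largest difference between the cell types before treatment. Before treatment its signal was 2.05-fold lower in CD8 than in CD4 TCM, MCL1 and BID were also lower in CD8, and BBC3, which encodes the BH3-only protein PUMA, was higher. BCL2L1, BCL2A1, BAX and BAK1 did not pass the test. By its next brightest probe BCL2 differed by -0.13 (adjusted p = 0.422 in limma). With the number of sorted cells as a covariate, 0 of 8 members passed before treatment, after anti-IL-15 or after IgG1. The sorted cell numbers of CD8 and CD4 did not overlap, so that fit cannot separate cell number from cell type. The share of all genes that passed in it is not given here. After anti-IL-15 none of the 8 tested members passed the test for change in CD8 or in CD4 TCM.

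The first comparison set CD8 against CD4 TCM of the same animal before treatment. BCL2, the founding survival gene, had levels of 6.58, 7.63 and 9.44 (lowest, median and highest of 12) in CD8 and 7.36, 8.61 and 10.28 in CD4. The 2 ranges overlapped, but CD8 was lower in 12 of 12 animals, by -2.39 in anti-IL-15 animal 5 to -0.07 in anti-IL-15 animal 3. Animals were placed alike in both cell types at the extremes: IgG1 animal 5 had the highest BCL2 level in each and IgG1 animal 2 the lowest in each. The difference was -1.04 ± 0.15 (SE, n = 12 pairs), a 2.05-fold lower intensity, with an adjusted p of 3.00e-05 in limma.

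BBC3, a gene that p53 and FOXO factors are known to induce and whose product binds all survival members, went the other way. Its levels were 6.11, 6.34 and 6.85 in CD8 and 5.42, 5.82 and 6.15 in CD4. The ranges met only at their edges, where the lowest CD8 samples lay within the upper end of CD4, and CD8 was higher in 12 of 12 animals, by 0.01 to 1.29. The difference was 0.59 ± 0.10 (adjusted p = 0.000196 in limma), or 1.51-fold.

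BID, which caspase 8 cleaves to link death receptors to mitochondria, ran from 4.64 through 5.49 to 5.79 in CD8 and from 5.31 through 5.77 to 5.89 in CD4. It was lower in CD8 in 10 of 12 animals, and the lowest CD8 values, in anti-IL-15 animal 1 and IgG1 animal 6, lay apart from the rest. The difference was -0.33 ± 0.12 (adjusted p = 0.0291 in limma). BID was detected in 10 of 12 CD8 and 12 of 12 CD4 samples before treatment. MCL1, a short-lived survival protein, had levels of 6.08, 6.60 and 7.12 in CD8 and 6.42, 6.90 and 7.57 in CD4. It was lower in CD8 in 10 of 12 animals, and the ranges overlapped over most of their width. The difference was -0.29 ± 0.11 (adjusted p = 0.0392 in limma; 0.0989 without the animal as a block). It passed in 5 of 12 fits that left out 1 animal, and was 0.67 (adjusted p = 0.436 in limma) with sorted cell number as a covariate.

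**Figure D1:**
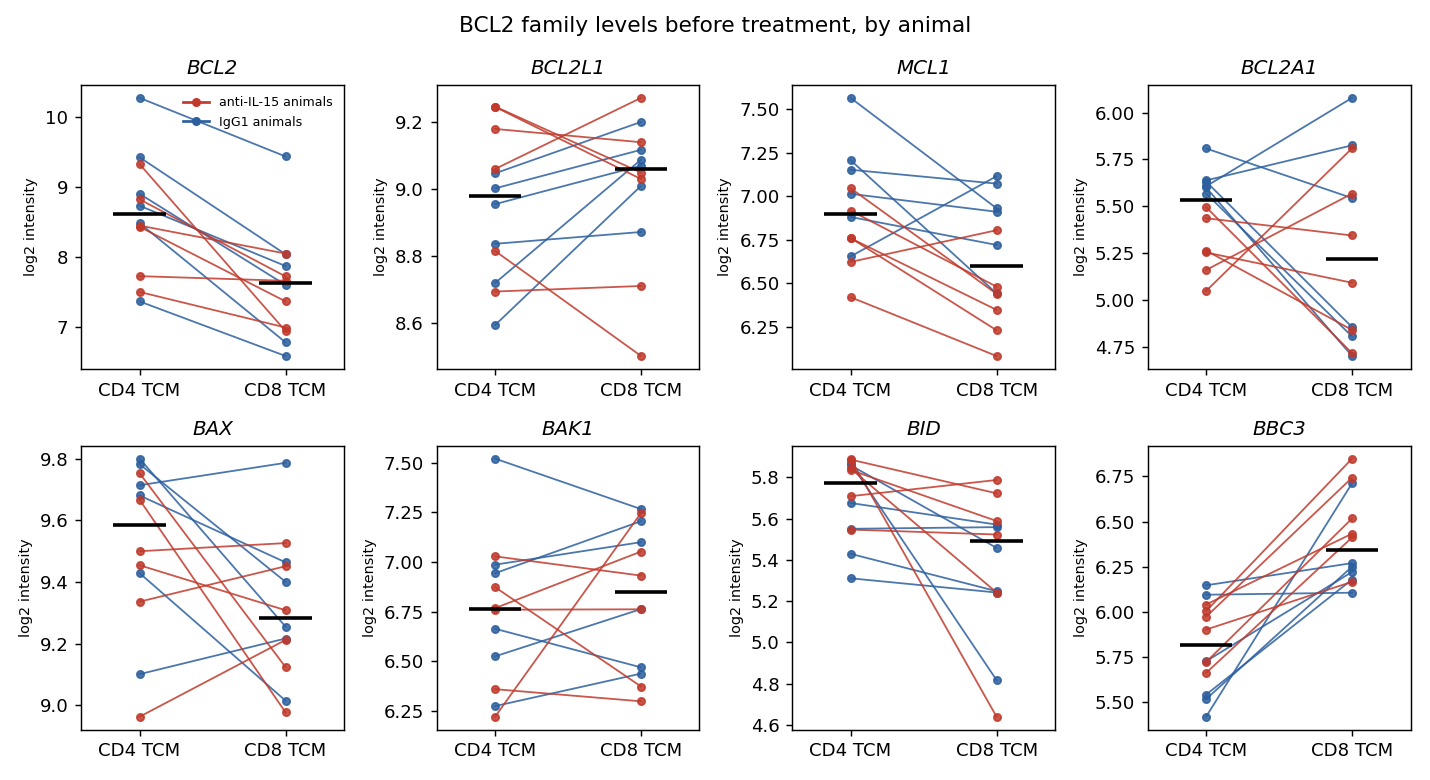
Level of each tested BCL2 family gene before treatment (vertical axis, log2 intensity, a scale of its own for each gene) in CD4 and CD8 TCM. Each line joins the samples of 1 of 12 animals, coloured by the antibody given later, and black bars are medians: every line falls for BCL2 and rises for BBC3, while for the other 6 genes lines run in both directions.

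The other 4 members did not pass the test in this comparison. BAX, a pore former, differed by -0.20 (95% confidence interval -0.41 to 0.00), and BCL2A1, a survival gene induced by NF-kB, by -0.19 (-0.48 to 0.10). BAK1, the second pore former, differed by 0.08 (-0.14 to 0.31), and BCL2L1, the survival gene for BCL-XL, by 0.06 (-0.13 to 0.24). BCL2A1 was detected in 6 of 12 CD8 samples and 12 of 12 CD4 samples before treatment, so its CD8 values sat near the detection limit. In all, 4 of 8 tested members passed, 3 lower and 1 higher in CD8, where 36.1% of all 9355 genes passed (20.8% lower and 15.3% higher). The count was 2 (BCL2 and BBC3) without anti-IL-15 animal 1 or without anti-IL-15 animal 4, 2 with no filter on dim probes and 0 with the cell number covariate. BCL2 and BBC3 were also the 2 of 8 members with the same direction in 12 of 12 animals, as were 7.66% of all genes, and no member separated the cell types without overlap, as 1.02% of all genes did. The members' median difference was -0.20 against 0.01 over all genes.

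After treatment BCL2 was again lower in CD8 than in CD4 TCM in 12 of 12 animals, by -1.78 to -0.66. Over all 12 animals 0 of 8 members separated the cell types without overlap, against 1.7% of all genes. In the anti-IL-15 animals its level was 7.26, 7.52 and 7.54 (lowest, median and highest of 6) in CD8 and 8.12, 8.21 and 9.02 in CD4, and the cell types did not overlap; 1 of 8 members and 4.63% of all genes separated in this way. The difference was -0.88 ± 0.14 (adjusted p = 0.000275 in limma). In the IgG1 animals the levels were 6.60, 7.49 and 8.17 in CD8 and 8.23, 8.90 and 9.83 in CD4, again with no overlap, as for 1 of 8 members and 10.9% of all genes. There the difference was -1.44 ± 0.14 (adjusted p = 2.57e-06 in limma), a 2.71-fold lower intensity. Whether the cell type difference depended on the antibody was not tested.

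BBC3 was higher in CD8 in 12 of 12 animals after treatment as well. After anti-IL-15 its levels were 6.27, 6.70 and 6.90 in CD8 and 5.77, 6.07 and 6.61 in CD4, a difference of 0.54 ± 0.16 (adjusted p = 0.0187 in limma). After IgG1 they were 6.15, 6.47 and 6.54 in CD8 and 5.27, 5.65 and 6.40 in CD4, a difference of 0.68 ± 0.16 (adjusted p = 0.00379 in limma). The cell types overlapped in both antibody groups. The same direction in 12 of 12 animals after treatment was seen for 2 of 8 members, BCL2 and BBC3, and for 13.3% of all genes.

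After anti-IL-15, 2 of 8 members passed, BCL2 and BBC3, against 24.6% of all genes, and without anti-IL-15 animal 2 the count was 1 (BCL2). After IgG1, 4 of 8 passed, against 30.2% of all genes: besides BCL2 and BBC3, BID was -0.46 ± 0.15 lower in CD8 (adjusted p = 0.0304 in limma) and BAX -0.31 ± 0.11 lower (adjusted p = 0.0489 in limma), each in 6 of 6 animals. BID was detected there in 2 of 6 CD8 and 6 of 6 CD4 samples, so its CD8 values sat near the detection limit. The BID and BAX calls were lost without the animal as a block (adjusted p = 0.0560 for BID and 0.133 for BAX) and without IgG1 animal 1, 3, 4 or 6, which left a count of 2. BAK1 was 0.37 (0.00 to 0.75) higher in CD8 after anti-IL-15, in 6 of 6 animals, and 0.40 (0.03 to 0.77) higher after IgG1, in 4 of 6, and passed in neither (adjusted p = 0.135 and 0.0989 in limma). The share of all genes with 1 direction in 6 of 6 animals is not given here for these comparisons. In 12 of 12 animals after treatment it was 13.3%. MCL1 differed by -0.17 (-0.53 to 0.19) after anti-IL-15 and by 0.02 (-0.34 to 0.37) after IgG1. BCL2 and BBC3 were the 2 members that passed before treatment, after anti-IL-15 and after IgG1.

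**Figure D2:**
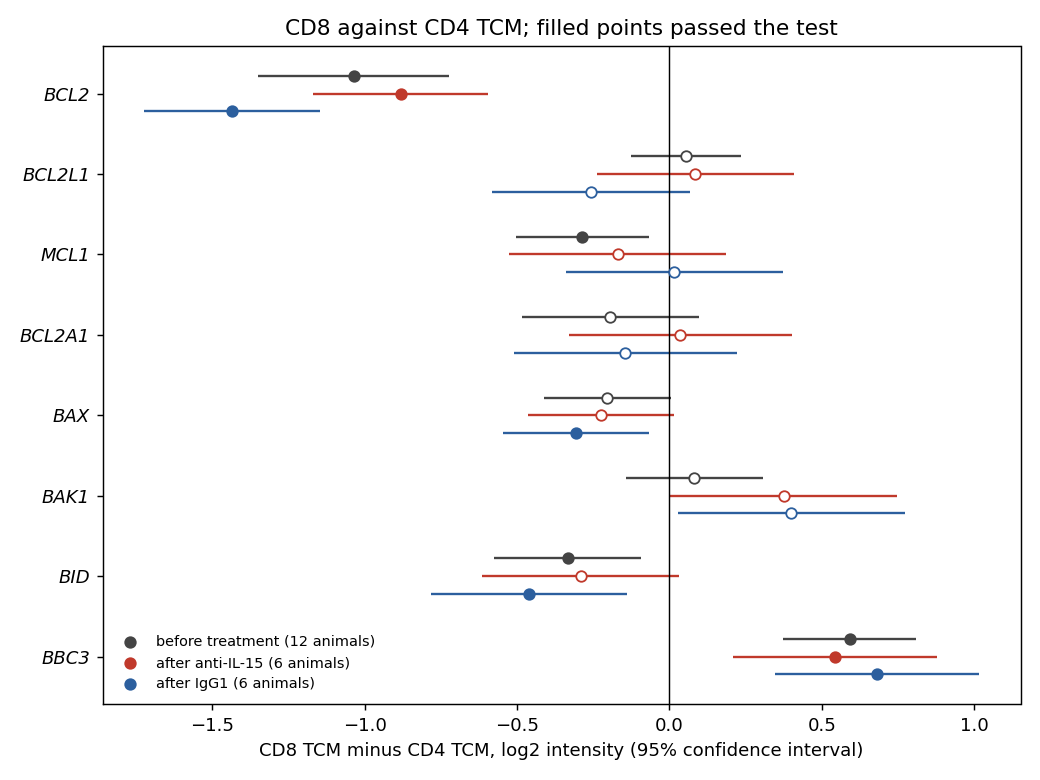
CD8 minus CD4 TCM (horizontal axis, log2 intensity) for each tested gene before treatment, after anti-IL-15 and after IgG1, with bars for the 95% confidence interval and filled points for an adjusted p below 0.05. BCL2 lies below 0 and BBC3 above 0 in all 3 comparisons, and the intervals of BCL2L1 and BCL2A1 cross 0 in all 3.

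Genes listed as markers of other cell types also differed between CD8 and CD4 TCM, and which cells gave these signals was not tested. In the comparison before treatment 15.3% of all genes were higher in CD8. Of 8 tested monocyte and dendritic cell markers, 5 were higher in CD8 (LYZ, CD14, CSF1R, FCN1 and S100A9), while TYROBP (0.72), CST3 (0.42) and VCAN (-0.25) did not pass. The summed intensity of the 8 was 249 to 2840 in CD8 and 246 to 441 in CD4. S100A8, a defining monocyte gene, was detected in 0 of 48 samples. NK cell markers were higher for 3 of 6 (GNLY, KLRD1 and NKG7), while NCAM1 (0.28), KLRF1 (0.18) and FCGR3A (-0.16) did not pass. Sums of the 6 were 749 to 1800 in CD8 and 427 to 600 in CD4. KLRC3 was detected in 1 of 24 CD8 samples and NCR1 in none. B cell markers were higher for 2 of 3 (CD79B and CD79A), with sums of 285 to 668 and 113 to 219, and BLK was not detected in either cell type. Of 4 tested erythroid genes 0 passed before treatment (HBA2 0.33, HBA1 0.31, AHSP 0.15 and HBB -0.34), with sums of 241 to 27500 in CD8 and 578 to 22200 in CD4. HBA2 and HBA1 were higher in CD8 after anti-IL-15 (0.95 and 0.92) and after IgG1 (1.07 and 0.75). HBB, also a globin gene, passed in neither (0.74 and 0.36, adjusted p = 0.0913 and 0.424 in limma), and nor did AHSP (0.27 and 0.19). The part of these signals in the BCL2 family differences was not tested. After IgG1 0 of 8 monocyte markers passed in limma, against 30.2% of all genes. The 2 of 8 with an unadjusted p below 0.05 went opposite ways (CD14 0.79 ± 0.37 and VCAN -0.79 ± 0.34). TYROBP (0.80 ± 0.44) and LYZ (0.72 ± 0.58) were above 0 without passing. BCL2 differed there by -1.44 and BBC3 by 0.68. After anti-IL-15 6 of 8 monocyte markers were higher in CD8, where 24.6% of all genes passed in either direction. The BCL2 and BBC3 differences were then -0.88 and 0.54. Of the NK markers, GNLY (3.72), KLRD1 (3.27) and NKG7 (2.34) were still higher in CD8 after IgG1. KLRF1 (0.12), NCAM1 (0.07) and FCGR3A (-0.02) did not pass there. Of the B cell markers, CD79B (2.43), CD79A (0.82) and MS4A1 (0.45) were higher in CD8 after IgG1. In sorted bulk samples, fewer cells that express a gene and less RNA per cell cannot be told apart.

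Probes of 1 gene did not always give the same answer. BCL2 had 4 probes past the filter. The brightest, ILMN_2246956, and the dimmest, ILMN_1801119, are annotated to the alpha transcript, and the dim one was -0.34 ± 0.11 lower in CD8 before treatment (adjusted p = 0.0228 in limma, over all probes), in 10 of 12 animals. The probes annotated to the beta transcript, ILMN_2363250 and ILMN_1701120, differed by -0.13 ± 0.12 and -0.04 ± 0.15, lower in CD8 in 8 and 6 of 12 animals, and did not pass (adjusted p = 0.425 and 0.862 in limma). After IgG1 ILMN_2363250 was -0.69 ± 0.25 lower (adjusted p = 0.0515 in limma), and after anti-IL-15 -0.41 ± 0.25. The size of the BCL2 difference therefore rests on the brightest probe.

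BCL2L1 had 2 probes past the filter, annotated to the same transcript, and they disagreed. The brightest, ILMN_1654118, differed by 0.06 ± 0.09, while ILMN_1742410 was -0.50 ± 0.10 lower in CD8 before treatment, in 12 of 12 animals (adjusted p = 0.000712 in limma). By the dimmer probe CD8 was also -0.70 ± 0.20 lower after anti-IL-15 (adjusted p = 0.0183 in limma) and -0.32 ± 0.20 lower after IgG1 (adjusted p = 0.260 in limma). No direction is therefore given for BCL2L1 between the cell types. MCL1, BAX and BID had 1 probe each past the filter and further probes below it, and BCL2A1, BAK1 and BBC3 had a single probe on the array.

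**Figure D3:**
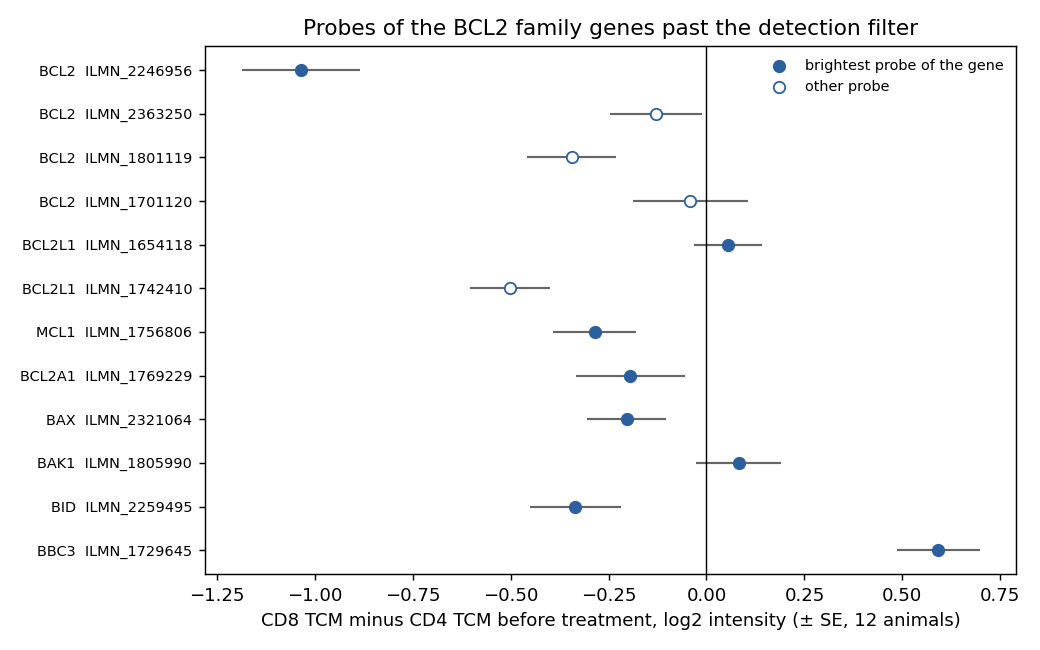
CD8 minus CD4 TCM before treatment (horizontal axis, log2 intensity, bars ± SE over 12 animals) for the 12 probes of BCL2 family genes past the detection filter; filled points are the probe that represents its gene. The 4 BCL2 probes spread from -1.04 to -0.04, and the 2 BCL2L1 probes lie on either side of 0.

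BCL2L11 and PMAIP1, the BH3-only genes for BIM and NOXA, gave no usable signal. None of the 3 probes of BCL2L11 was detected in any of 48 samples, and the brightest read 85 to 115 units of raw intensity. The brighter of the 2 PMAIP1 probes was detected in 2 of 48 samples, 1 from each cell type. With human probes this leaves the macaque level of both genes unmeasured.

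The second question was how the family changed after each antibody. In CD8 TCM after anti-IL-15, 0 of 8 members passed in limma, where 0.174% of 8626 genes did, and at an unadjusted p below 0.05 there were also 0 of 8 members, against 9.41% of all genes. BCL2 stood at 6.94, 7.51 and 8.05 before and 7.26, 7.52 and 7.54 after anti-IL-15. The medians were alike and the post-treatment samples lay within the pre-treatment range; 3 animals were higher and 3 lower after treatment. The change was 0.02 ± 0.21, with a 95% confidence interval of -0.42 to 0.46.

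MCL1 stood at 6.08, 6.39 and 6.81 before and 5.90, 6.77 and 7.05 after anti-IL-15 in CD8. It was higher in 5 of 6 animals and lower in animal 2, and the groups overlapped. The change was 0.27 ± 0.16 (adjusted p = 0.622 in limma). BCL2A1 stood at 4.71, 5.22 and 5.81 before and 5.09, 5.40 and 6.72 after. Its change of 0.43 ± 0.26 (adjusted p = 0.645 in limma) ranged from -0.72 to 2.01 among animals, and was 0.11 without anti-IL-15 animal 6, which had the largest rise.

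In that animal the monocyte signal was higher after treatment as well. The summed intensity of the 8 monocyte markers was 1380 before and 6560 after anti-IL-15 in CD8 of animal 6, where BCL2A1 went from 4.71 to 6.72, and 2480 and 3220 in animal 5, where it went from 5.09 to 6.22. In animals 1, 2 and 4 the sums were 267 to 386 at both times, and in animal 3 they were 388 and 1070. The 2 signals did not move together everywhere: before treatment animal 6 had a sum of 1380 with the lowest BCL2A1 level of its group. In IgG1 animal 5 the sum went from 2840 to 1700 while BCL2A1 went from 4.80 to 5.45, and in IgG1 animal 6 from 1010 to 334 while it went from 4.85 to 5.30. The part of monocyte RNA in the BCL2A1 values was not tested. Among NK markers in CD8 after anti-IL-15, GNLY (1.21 ± 0.21) and NKG7 (0.98 ± 0.19) passed (adjusted p = 0.043 and 0.048 in limma), as did 0.174% of all genes. KLRD1 (1.09), KLRF1 (0.56), NCAM1 (-0.16) and FCGR3A (0.01) did not pass. For GNLY and NKG7 the change minus that after IgG1 did not pass (adjusted p = 0.624 and 0.642 in limma). The part of these signals in the BCL2 family changes was not tested.

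BAK1 in CD8 changed by 0.25 ± 0.13 after anti-IL-15, in 4 of 6 animals upward. BBC3 changed by 0.13 ± 0.14, BAX by 0.11 ± 0.15, BID by 0.04 ± 0.17 and BCL2L1 by -0.05 ± 0.14. The members' median change was 0.12 against -0.02 over all genes, and 7 of 8 were above 0, as were 45.9% of all genes.

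After IgG1 0 of 8 members passed in CD8 TCM, as did 0% of 8626 genes, and 0 of 8 had an unadjusted p below 0.05, against 7% of all genes. BID changed by -0.27 ± 0.17 and BAK1 by -0.26 ± 0.13, each lower in 5 of 6 animals. BID was detected in 5 of 6 of these CD8 samples before IgG1 and in 2 of 6 after. BCL2 stood at 6.58, 7.73 and 9.44 before and 6.60, 7.49 and 8.17 after, lower in 5 of 6 animals, with a change of -0.20 ± 0.21. BBC3 changed by 0.12 ± 0.14, BCL2A1 by 0.08 ± 0.26, BAX by -0.07 ± 0.15, and MCL1 and BCL2L1 each by -0.09.

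The antibodies were compared by the change after anti-IL-15 minus the change after IgG1, which uses the same samples as the 2 changes above. In CD8 TCM 0 of 8 members passed in limma, as did 0% of 8626 genes. BAK1 had the 1 unadjusted p below 0.05 among the 8, against 7.56% of all genes: its difference was 0.51 ± 0.19 (95% confidence interval 0.11 to 0.90; adjusted p = 0.607 in limma). It was 0.28 with no background correction and with the authors' deposited values. MCL1 differed by 0.36 ± 0.23, BCL2A1 by 0.35 ± 0.37, BID by 0.31 ± 0.24 and BCL2 by 0.22 ± 0.29. BAX, BCL2L1 and BBC3 differed by 0.18, 0.04 and 0.01. The estimates were above 0 for 8 of 8 members, survival and death genes alike, as for 51.2% of all genes, and their median was 0.27 against 0.01.

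In CD4 TCM after anti-IL-15, 0 of 8 members passed in limma, where 0.0336% of 8923 genes did. BCL2A1 had the 1 unadjusted p below 0.05 among them, against 5.68% of all genes. It stood at 5.05, 5.26 and 5.49 before and 5.26, 5.62 and 6.03 after. The groups overlapped, and the level was higher after treatment in 6 of 6 animals; 2.4% of all genes kept 1 direction in 6 of 6. The change was 0.34 ± 0.13 (adjusted p = 0.770 in limma). Monocyte markers in CD4 TCM summed to 246 to 441 before and 257 to 508 after treatment, over both antibodies. In the anti-IL-15 animals VCAN changed by 0.37 ± 0.13 and LYZ by 0.47 ± 0.26 (adjusted p = 0.726 and 0.906 in limma). CD14 and TYROBP, the other monocyte markers tested in CD4, changed by -0.11 ± 0.22 and -0.04 ± 0.16. S100A9 read higher after treatment in 6 of 6, but it was detected in 2 of 24 CD4 samples and was not tested there. The sum in animal 6, which had the highest BCL2A1 level after treatment, went from 329 to 508. The part of these markers in the BCL2A1 change was not tested.

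BCL2 in CD4 TCM stood at 7.50, 8.44 and 9.33 before and 8.12, 8.21 and 9.02 after anti-IL-15. The animals moved apart from each other, 3 up and 3 down, from -1.12 to 0.92. The change was -0.02 ± 0.24 (95% confidence interval -0.51 to 0.47). BCL2L1 changed by -0.22 ± 0.16, BBC3 by 0.22 ± 0.17, BAX by 0.15 ± 0.15 and MCL1 by 0.09 ± 0.15. BID and BAK1 changed by -0.04 and -0.02.

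After IgG1 0 of 8 members passed in CD4 TCM, as did 0% of 8923 genes, and 3 of 8 had an unadjusted p below 0.05, against 3.51% of all genes. BAK1 stood at 6.27, 6.80 and 7.52 before and 5.77, 6.24 and 6.66 after IgG1. It was lower by 0.75 or more in 4 animals and slightly higher in animals 1 and 5. The change was -0.60 ± 0.18 (adjusted p = 1 in limma). BCL2L1 stood at 8.59, 8.90 and 9.05 before and 9.01, 9.23 and 9.51 after, and was higher in 6 of 6 animals, while 3.99% of all genes kept 1 direction. Its change was 0.36 ± 0.16 by the brightest probe and -0.16 ± 0.16 by the other (adjusted p = 1 for both in limma). MCL1 changed by -0.32 ± 0.15, lower in 5 of 6 animals (adjusted p = 1 in limma). BCL2A1, BID, BCL2, BBC3 and BAX changed by -0.12 to 0.08.

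The change after anti-IL-15 minus that after IgG1 in CD4 TCM passed for 0 of 8 members in limma, as for 0% of 8923 genes, and 3 of 8 had an unadjusted p below 0.05, against 3.78% of all genes. These were BAK1 (0.59 ± 0.26), BCL2L1 (-0.59 ± 0.23) and BCL2A1 (0.46 ± 0.19), all with an adjusted p of 0.998 in limma. By its next brightest probe BCL2L1 turned to 0.15, so no direction is given for it, and BCL2A1 was 0.16 with no background correction or with the authors' deposited values. MCL1 differed by 0.41 ± 0.21, BBC3 by 0.23 ± 0.25, BAX by 0.15 ± 0.21, BCL2 by -0.11 ± 0.33 and BID by 0.07 ± 0.18. The median over members was 0.19 against -0.03 over all genes. For BAK1 the CD4 change was -0.02 after anti-IL-15 and -0.60 after IgG1, so the difference lay on the side of the control antibody.

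**Figure D4:**
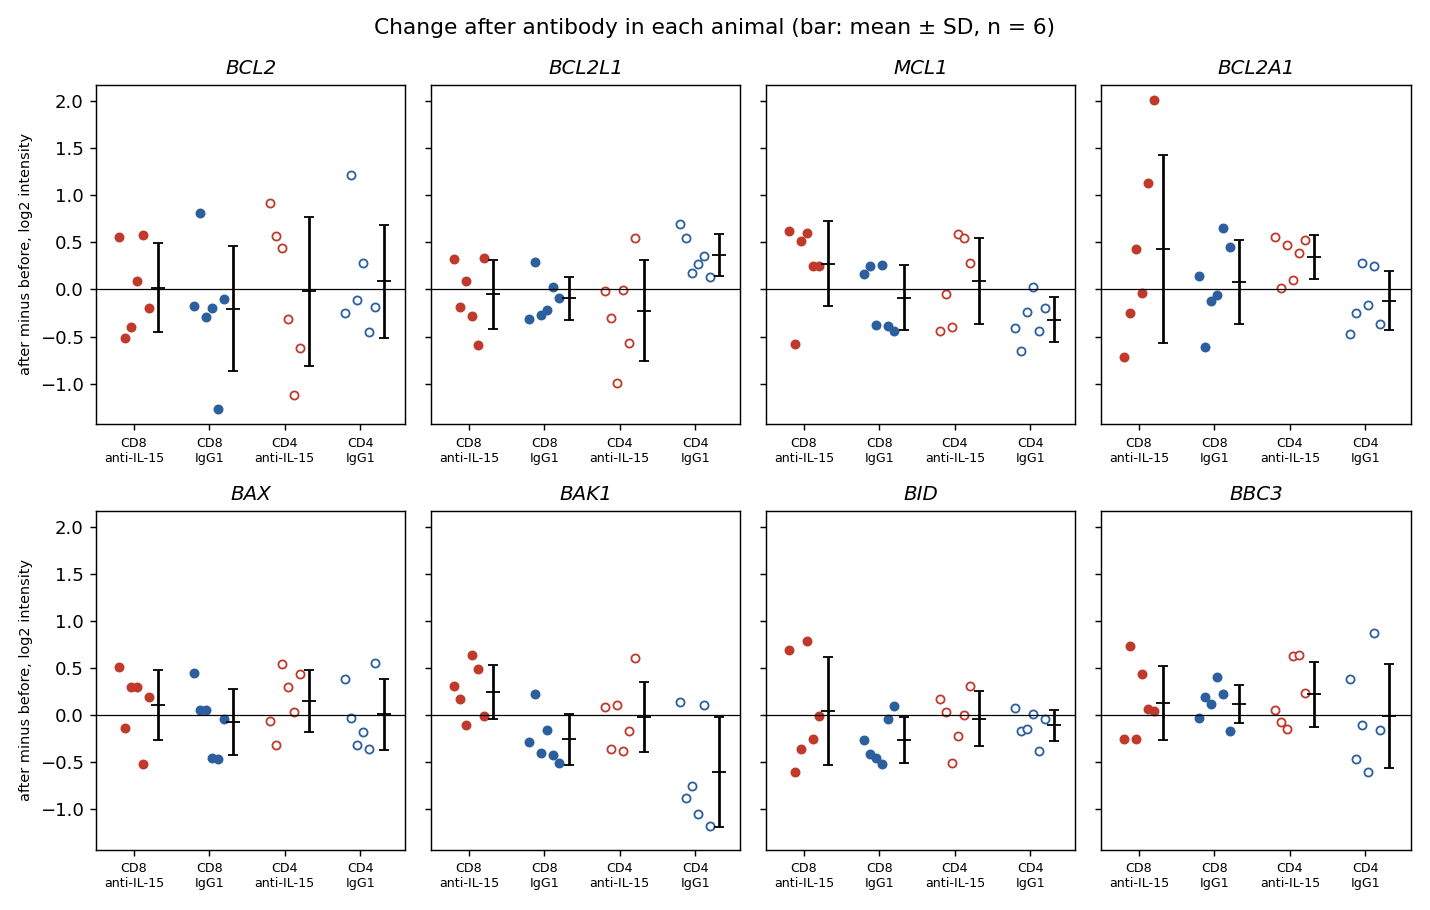
Change after treatment in each animal (vertical axis, after minus before, log2 intensity) for the 8 tested genes, with points for 6 animals and bars for the mean ± SD, in CD8 (filled) and CD4 (open) TCM after anti-IL-15 (red) or IgG1 (blue). The points of most groups lie on both sides of 0; BCL2A1 in CD4 after anti-IL-15 and BCL2L1 in CD4 after IgG1 lie above 0 in 6 of 6 animals.

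The change in CD8 minus that in CD4 after anti-IL-15 passed for 0 of 8 members in limma, as for 0% of 9355 genes, and 0 of 8 had an unadjusted p below 0.05, against 3.62% of all genes. The estimates ran from -0.09 for BBC3 to 0.27 for BAK1, and that of BCL2 was 0.04 (95% confidence interval -0.64 to 0.72). The spread of BCL2 among animals was wide before treatment, with SDs of 0.44 and 1.03 in CD8 and 0.68 and 0.97 in CD4 for the anti-IL-15 and IgG1 animals. After treatment the SDs were 0.11 and 0.54 in CD8 and 0.34 and 0.58 in CD4, lower in 4 of 4 groups, and this was not tested.

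The antibody groups were also compared before either antibody was given. In CD8 TCM 0 of 8 members passed in limma, as did 0% of 8626 genes. MCL1 alone had an unadjusted p below 0.05, against 6.39% of all genes: it was -0.47 ± 0.15 lower in the animals that later received anti-IL-15 (adjusted p = 0.701 in limma). In CD4 TCM 0 of 8 members passed in limma, as did 0% of 8923 genes, and BCL2A1 had the 1 unadjusted p below 0.05, against 11.5% of all genes, at -0.37 ± 0.11 (adjusted p = 0.258 in limma). Both genes started from a lower level in the animals in which they later had a positive change. BCL2 was -0.26 ± 0.38 lower in CD8 and -0.49 ± 0.40 lower in CD4 of the anti-IL-15 animals.

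Genes that act around the family were counted in fixed lists. Between CD8 and CD4 before treatment 36.1% of all genes passed (15.3% higher and 20.8% lower in CD8). Of 4 tested other BCL2 family genes (of 13 listed), BCL2L12 (0.40) and BCL2L14 (0.32) were higher in CD8 before treatment and BIK (-0.47), a BH3-only gene, was lower. Among death receptors and their adaptors, 8 of 11 were tested: TNFRSF1A, the first TNF receptor, was 1.05 ± 0.11 higher in CD8 in 12 of 12 animals, and TNFRSF10A, a TRAIL receptor, was -0.79 ± 0.08 lower in 12 of 12. For the apoptosome and caspases (8 of 10 tested), AIFM1 was higher (0.42) and CASP9, the caspase that the apoptosome activates, lower (-0.23). BIRC6 (-0.37) was the 1 of 3 tested inhibitors of apoptosis that passed. Of 6 tested mitochondrial partners (of 9 listed), TMBIM6 (0.44) was higher and DNM1L (-0.30), a mitochondrial fission GTPase, was lower.

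Upstream of the family, in IL-15 and common gamma chain signalling, 15 of 18 genes were tested and 3 were higher and 5 lower in CD8 before treatment, where 15.3% of all genes were higher and 20.8% lower. SOCS3, a feedback inhibitor of JAK and STAT signalling, differed most at -1.06 ± 0.14, followed by the transcription factor FOXO1 at -0.62 ± 0.09. FOXO3 (0.41), IL2RB (0.30), the receptor chain that IL-15 shares with IL-2, and AKT1 (0.28) were higher. IL7R, the receptor of the survival cytokine IL-7, was lower (-0.39). After treatment 1 of these 15 was higher and 5 were lower in CD8 than in CD4 in the anti-IL-15 animals, and 0 and 4 in the IgG1 animals, where 24.6% and 30.2% of all genes passed in either direction; FOXO1, SOCS3 and STAT5B were lower in both.

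After anti-IL-15 itself, 1 upstream gene passed with a rise in each cell type and none passed with a fall. Of all genes 0.174% passed in CD8 and 0.0336% in CD4. SOCS3 rose by 1.29 ± 0.20 in CD8 (adjusted p = 0.0227 in limma) and SOCS1, a related inhibitor, by 1.05 ± 0.14 in CD4 (adjusted p = 0.00524 in limma). In the other cell type SOCS3 changed by 0.93 ± 0.20 in CD4 and SOCS1 by 0.98 ± 0.20 in CD8, short of the threshold (adjusted p = 0.278 and 0.0585 in limma). After IgG1 these genes also had positive changes that did not pass: SOCS3 changed by 0.39 ± 0.20 in CD8 and 0.65 ± 0.20 in CD4 (adjusted p = 0.688 and 1 in limma), and SOCS1 by 0.51 ± 0.20 and 0.76 ± 0.14 (adjusted p = 0.688 and 0.325 in limma). The change after anti-IL-15 minus that after IgG1 did not pass either. It was 0.90 for SOCS3 in CD8 (adjusted p = 0.607 in limma) and 0.29 for SOCS1 in CD4 (adjusted p = 0.998 in limma). No gene of the other 5 lists passed after either antibody in either cell type. At an unadjusted p below 0.05 these 5 lists held 2 of 27 tested genes in CD8 and 1 of 29 in CD4 after anti-IL-15, against 9.41% and 5.68% of all genes, and 0 of each after IgG1, against 7% and 3.51%.

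Across the 48 samples, with the mean of each cell type removed, the genes most like BCL2 among 9349 were DPP4 (CD26, a surface peptidase; Pearson r = 0.781, Spearman rho = 0.699), SOCS2 (0.71 and 0.616) and DUSP12 (0.684 and 0.662). For MCL1 the closest were PTCHD4 (0.506 and 0.537), PNRC1 (0.499 and 0.487) and EFHD2 (0.488 and 0.39). These values describe samples that come in fours from 12 animals, and no test was made.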

How the data were processed

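The deposited non-normalized table gives, per the file headers, a whole-number bead intensity and a detection p-value for each of 47230 probes on 49 human Illumina arrays; the authors' deposited value table gives log2 values. Per the submitters' processing notes limma was used, with no version or role stated; build and scanner software are not given in the sources used here. Samples were grouped by the labels, and the misspelt time point of control samples was read as post-treatment. A CD8 sample of an IgG1 animal before treatment was on 2 arrays, which were averaged after normalization and counted once.

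Here intensities were background corrected, quantile normalized and log2 transformed with neqc (offset 16) of limma 3.58.1 in R 4.3.3, and 49 readings of 0 were set to missing afterwards. Genes were kept where 6 of 24 samples of CD8 or of CD4 TCM had a detection p-value below 0.05, and were represented by the probe with the highest mean, giving 8626 genes in CD8, 8923 in CD4 and 9355 in joint fits. Symbols came from the platform annotation: 30113 probes carried 1 symbol, 8 several and 17109 none. The number of arrays limits the precision.

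Models were fitted over all genes with lmFit and eBayes; the animal entered as a fixed block (animal by cell type over all 48 samples; no block for the antibody groups before treatment). Two-sided p values were adjusted with the Benjamini-Hochberg method across the genes of each fit, and 0.05 was the threshold. The labels name the animal of each sample. Samples before and after treatment of an animal tended to deviate together, with a median r of 0.389 and 0.374 in CD8 and 0.22 and 0.395 in CD4 (anti-IL-15 and IgG1). The lowest r of a pair was 0.104 and 0.259 in CD8 and 0.00985 and 0.188 in CD4. The best match was the own animal in 5 and 6 of 6 cases in CD8 and in 4 and 6 of 6 in CD4. Animals are numbered 1 to 6 within each antibody group.

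All 10 members were named in each comparison, with further probes where they passed the filter; of each pathway list up to 6 genes past the threshold, and 3 genes most like BCL2 and MCL1. The members, lists and tests were chosen with earlier results of these data known. The fits were tested on simulated data, where a change of 0.5 passed for 25.4% of changed genes in CD8 after anti-IL-15. It passed for 32.8% in CD4 after anti-IL-15 and for 2.99% in the CD8 difference between the antibodies. For CD8 against CD4 before treatment it passed for 80.6%. A change of 1 passed for 97%, 100%, 64.2% and 100% in the same order. Alternatives were other background corrections, the deposited value table, other filters on dim probes, the next brightest probe, a variance trend with robust moderation, sorted cell number as a covariate, a threshold of 0.1, no block or a random block, and each animal left out. Figures were drawn with matplotlib 3.10.9.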

Additional observations from a re-analysis of the deposited data

Results flagged for a closer look

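Among 96 groups of 6 values, 5 held a sample farther from the others than Dixon's 95% limit allows, and chance flags about 1 in 20 groups. BBC3 in CD8 TCM before treatment was 6.71 in IgG1 animal 6, where the other 5 IgG1 animals lay between 6.11 and 6.27. BCL2 in CD4 TCM after anti-IL-15 was 9.02 in animal 2, above the 8.12 to 8.42 of the others. BCL2 in CD8 TCM after anti-IL-15 was 7.26 in animal 3, below the 7.46 to 7.54 of the others. BCL2A1 in CD4 TCM before treatment was 5.81 in IgG1 animal 3, above 5.57 to 5.64. The change of MCL1 in CD8 TCM after anti-IL-15 was -0.577 in animal 2, where the others rose by 0.247 to 0.616.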

How the results depend on the processing

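Of 272 counts of members past the threshold under 23 alternatives, 260 stayed within 1.5 times their value, including 0 throughout for every comparison of after with before treatment. Before treatment the count of members that differed between CD8 and CD4 fell from 4 to 2 with no filter on dim probes and to 0 with sorted cell number as a covariate, and was 2 to 4 when 1 animal was left out. After anti-IL-15 it went from 2 to 0 with the covariate and was 1 to 3 with an animal left out; after IgG1 it went from 4 to 0 with the covariate and to 2 with no replicate block, and was 2 to 4 with an animal left out. The block changed no other call except that of MCL1 before treatment. Sorted cell numbers of CD8 and CD4 do not overlap, so cell number and cell type cannot be told apart, and the cause of the lost calls was not tested. The share of all genes that passed under each alternative is not given here. With it MCL1 turned to 0.67 before treatment, and BBC3 to -0.17 after anti-IL-15 and -0.078 after IgG1. With the next brightest probe BCL2L1 turned to -0.50 before treatment and -0.70 after anti-IL-15, and BCL2 before treatment was -0.13 (adjusted p = 0.422 in limma); the cause was not tested. BCL2 passed in 12 of 12 fits with an animal left out in all 3 comparisons, BBC3 in 12, 11 and 12, BID in 9, 1 and 8, and MCL1 before treatment in 5. Another 78 values that had not passed changed sign. The planned fit with the slide as a block was not run, because the columns name no slide.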
